A study of Mus musculus with 8 samples.

Results

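Heat shock protein and DNAJ chaperone genes were examined in the open chromatin of mouse gastrocnemius, a calf muscle. The members were all regions of the deposited table that were annotated to a protein-coding gene whose symbol began with Hspa, Hspb, Hspd, Hspe, Hsph, Hsp90, Hsf or Dnaj. The rule found 928 regions of 75 genes, among 489637 regions in all and 286589 of protein-coding genes. By symbol, 369 regions belonged to Dnajc genes, 151 to Hspa, 142 to Dnajb, 100 to Hsf, 85 to Hspb, 56 to Dnaja, 15 to Hsp90, 7 to Hspd and 3 to Hsph. Hspbp1, Hspbap1 and Hsf2bp matched by their letters alone, since they encode partners of these proteins and not chaperones or heat shock factors. No region was listed under Hspe1, Hspa14 or Hspb2.

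ATAC-seq, where a transposase cuts and tags open DNA, was run on isolated nuclei and gave 4 libraries labelled Vehicle and 4 labelled iMSBmal1KO. All 8 samples, controls included, carried the genotype Cre+:iMSBmal1 fl/fl, so every mouse had a Cre transgene and floxed Bmal1, and all were 6 months old. The Vehicle group received vehicle and the iMSBmal1KO group received Tamoxifen, the inducer of Cre in such designs. Bmal1 is a core gene of the circadian clock. Treatment and knockout cannot be told apart in this design, and the promoter that drives Cre, the sex and the time of collection are not given in the sources used here. The labels do not say that the 4 samples of a group were separate animals, so p-values measure the spread between these samples only.

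Chaperones bind unfolded or partly folded proteins and let them fold, refold or pass on to degradation. HSP70 proteins (Hspa genes) do so by cycles of ATP hydrolysis that J-domain proteins (Dnaj genes) start and HSP110 helps to reset. HSP90, the mitochondrial chaperonin of Hspd1 and Hspe1, and the small heat shock proteins (Hspb genes) act on other folding states. Heat shock factors (Hsf genes) bind inverted repeats of the block GAA, called heat shock elements, at the promoters of many of these genes, whereas genes for chaperones of the endoplasmic reticulum carry ER stress elements. Skeletal muscle is rich in small heat shock proteins, which protect its filaments, and the clock proteins BMAL1 and CLOCK bind E-boxes with the core CACGTG.

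RefSeq (GRCm38.p6) gave 82 promoter windows, from 250 bases before to 50 after a start, for 65 genes that the rule names. For 14 member genes, among them Hspa8, Hspa9, Hspa13, Hsp90aa1, Hsp90ab1, Hsf1 and Hsf4, no window was searched here. The 82 windows had a median GC content of 62.3%, against 52.7% for all 32851 windows, and a median ratio of observed to expected CpG of 0.83, against 0.38. Of the 82 windows, 72 were covered by a region of the deposited table. Each motif was searched on both strands. A heat shock element of 3 blocks (GAA, TTC and GAA with 2 bases between them, or its reverse complement) was present in 6 windows, or 7.32%, against 0.603% of all windows. These belonged to Dnajb6, Hspd1, Hspe1 and Hsph1, or 6.15% of the 65 genes, against 0.662% of all genes. Hspd1 and Hspe1 share their sites, and the overlapping windows of Dnajb6, like those of Hsph1, hold the same site. The 2-block form GAANNTTC, which every 3-block element also holds, was present in 23.2% of the 82 windows and in 15.1% of all windows.

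The ER stress element was found in 3 windows, or 3.66%, against 0.119% of all. They belonged to Hspa5, which encodes BiP, the HSP70 of the endoplasmic reticulum, to Hsp90b1, the HSP90 of that compartment, and to Dnajc3, one of its J-domain proteins. The E-box CACGTG was present in 10 windows of 9 genes (Dnajb9, Dnajc1, Dnajc16, Dnajc8, Hsf2, Hsf3, Hspbap1, Hspd1 and Hsph1), or 12.2%, against 7.15% of all. The E-box and the ER stress element each hold a CpG, and the median CpG ratio was 0.83 in these windows, against 0.38 in all. The part of this in the shares was not tested. A match is a string of letters and does not show that a factor bound there.

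The bases before the start are printed 5′ to 3′ for 2 stress-inducible HSP70 genes, 2 promoters with 3-block elements, the 3 with ER stress elements and 2 with an E-box. Capitals mark the motif. The Hspd1 stretch is the DNA between its start and the divergent start of Hspe1, which encodes the co-chaperonin.
Hspa1a (chr17:34972157-34972406, - strand): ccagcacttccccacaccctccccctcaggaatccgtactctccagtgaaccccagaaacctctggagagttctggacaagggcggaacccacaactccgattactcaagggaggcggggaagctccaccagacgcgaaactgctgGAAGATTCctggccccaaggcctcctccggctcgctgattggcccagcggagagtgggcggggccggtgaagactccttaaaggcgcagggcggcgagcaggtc
Hspa1b (chr17:34959239-34959488, - strand): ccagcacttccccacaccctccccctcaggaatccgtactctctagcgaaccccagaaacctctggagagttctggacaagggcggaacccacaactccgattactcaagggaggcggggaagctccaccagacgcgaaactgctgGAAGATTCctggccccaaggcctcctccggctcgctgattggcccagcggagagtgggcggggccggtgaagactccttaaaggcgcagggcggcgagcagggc
Hspd1 (chr1:55087933-55088147, - strand): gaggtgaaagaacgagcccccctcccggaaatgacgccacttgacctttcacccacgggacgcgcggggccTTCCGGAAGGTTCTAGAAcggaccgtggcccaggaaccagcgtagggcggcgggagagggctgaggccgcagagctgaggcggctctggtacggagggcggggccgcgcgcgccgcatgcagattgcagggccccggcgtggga
Dnajb6 (chr5:29735648-29735897, + strand): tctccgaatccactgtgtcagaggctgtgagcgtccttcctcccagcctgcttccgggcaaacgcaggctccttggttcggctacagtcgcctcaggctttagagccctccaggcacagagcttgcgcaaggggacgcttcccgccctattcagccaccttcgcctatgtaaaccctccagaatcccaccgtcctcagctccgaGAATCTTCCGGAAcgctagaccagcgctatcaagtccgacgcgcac
Hspa5 (chr2:34771840-34772089, + strand): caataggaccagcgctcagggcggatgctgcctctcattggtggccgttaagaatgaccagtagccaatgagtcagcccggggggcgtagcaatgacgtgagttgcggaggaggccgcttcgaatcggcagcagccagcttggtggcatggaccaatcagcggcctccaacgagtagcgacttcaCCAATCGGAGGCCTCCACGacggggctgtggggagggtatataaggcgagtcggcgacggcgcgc
Hsp90b1 (chr10:86705445-86705694, - strand): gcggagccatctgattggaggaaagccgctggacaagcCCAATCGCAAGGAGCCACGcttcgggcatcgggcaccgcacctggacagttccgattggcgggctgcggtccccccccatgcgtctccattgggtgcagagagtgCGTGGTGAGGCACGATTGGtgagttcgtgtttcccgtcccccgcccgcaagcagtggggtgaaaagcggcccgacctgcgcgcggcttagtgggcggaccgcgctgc
Dnajc3 (chr14:118937682-118937931, + strand): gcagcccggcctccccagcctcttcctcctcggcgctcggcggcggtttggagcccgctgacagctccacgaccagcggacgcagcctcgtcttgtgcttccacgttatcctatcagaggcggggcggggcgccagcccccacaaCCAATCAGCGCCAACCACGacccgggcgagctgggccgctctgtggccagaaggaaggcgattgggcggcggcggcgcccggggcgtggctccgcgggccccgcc
Hsf2 (chr10:57486135-57486384, + strand): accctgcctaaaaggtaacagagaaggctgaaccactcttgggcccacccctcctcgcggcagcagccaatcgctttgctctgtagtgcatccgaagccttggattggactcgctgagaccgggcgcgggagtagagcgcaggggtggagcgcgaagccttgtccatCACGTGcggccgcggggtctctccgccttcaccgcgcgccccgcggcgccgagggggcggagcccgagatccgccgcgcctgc
Dnajb9 (chr12:44210069-44210318, - strand): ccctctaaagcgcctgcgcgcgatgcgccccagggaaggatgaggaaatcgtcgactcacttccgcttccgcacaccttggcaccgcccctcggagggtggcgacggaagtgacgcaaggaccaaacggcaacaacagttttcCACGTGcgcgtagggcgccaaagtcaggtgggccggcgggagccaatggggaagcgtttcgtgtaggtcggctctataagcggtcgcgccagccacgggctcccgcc

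Hspa1a and Hspa1b, the stress-inducible HSP70 pair, shared 247 of these 250 bases, so reads from them may not be assignable to one gene, and their separate values are uncertain. In Hspd1 a pair of 3-block elements overlapped, with first bases at -144 and -139 from the start. The element of Dnajb6, a small J-domain protein that limits aggregation, began at -46. Hsp90b1 held 2 ER stress elements, the outer one from -212, whereas the element of Hspa5 began at -65 and that of Dnajc3 at -105. The E-box lay at -83 in Hsf2 and at -107 in Dnajb9, a J-domain protein of the endoplasmic reticulum.

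The deposited values are reads scaled by one factor per library and are called signal here. Judged by that factor, the libraries held 4.31 M to 29.5 M reads in regions. Vehicle replicate 4 was the shallowest, with 16.5% of its signal on the mitochondrial chromosome, against 1.11% to 5.51% in the other 7 libraries. Promoters of 9 tested genes for muscle fibres had a median percentile of 94.9 among all tested promoters by signal per kb. The lists for satellite, fibro-adipogenic, endothelial, Schwann and smooth muscle cells had medians of 4.83 to 42.4, and no macrophage promoter had enough signal to be tested. Arntl, the symbol of Bmal1 in the table, had a summed signal of 1942 to 2688 in Vehicle and 3023 to 3421 in iMSBmal1KO (log2 change 0.46, SE 0.14, adjusted p = 0.374 in limma). The floxed segment is not given in the sources used here, so this value does not check the deletion.

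Chaperone gene signal lay mainly at transcription starts. Regions that the table assigns to a transcription start made up 26.5% of the members' regions and held 76.0% ± 2.04 (SD, n = 4) of their signal in Vehicle and 76.9% ± 1.43 (SD, n = 4) in iMSBmal1KO. In regions of other protein-coding genes that share was 59.7% ± 1.99 and 61.4% ± 1.64. Introns held 40.4% of the members' regions and 14.5% ± 1.21 of the signal in Vehicle. Regions that contained a start had 878 ± 164 units of signal per kb in Vehicle and 957 ± 96.4 in iMSBmal1KO, and those of other protein-coding genes had 845 ± 130 and 1002 ± 96.5, so the 2 sets overlapped within their SD. Within 500 bp downstream the members had 349 ± 53.9 units per kb in Vehicle, and other protein-coding genes 189 ± 7.69. In Vehicle no other distance bin had the members above other genes by more than the SD. Up to 500 bp upstream, the members were higher in Vehicle replicates 1 to 3. In Vehicle replicate 4 they had 267 there, against 408 at other genes. More than 500 bp upstream, the members had 163 ± 18.9 in Vehicle, against 287 ± 43.1 at other genes. The mean of 287 included 351 for Vehicle replicate 4, beside 257 to 275 for replicates 1 to 3. With iMSBmal1KO the levels there were 163 ± 6.03 at the members and 255 ± 12.2 at other genes. Farther than 20000 bp downstream the members had 70.0 ± 4.78 in Vehicle, against 112 ± 9.78. These shares and levels are descriptions of all regions, including those too low to test. The part of genes on the mitochondrial chromosome in the values of other protein-coding genes was not tested.

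**Figure D1:**
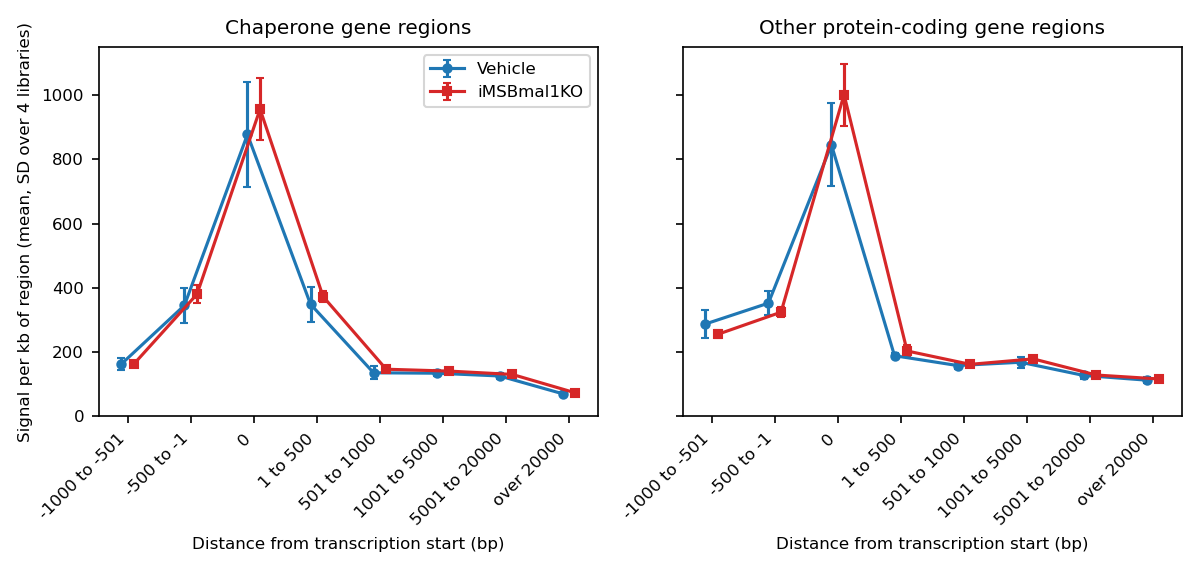
Signal per kb of region by distance from the annotated transcription start, with points for the mean and bars for the SD over 4 libraries, at chaperone gene regions (left) and regions of other protein-coding genes (right). The bin marked 0 holds regions that contain a start, where chaperone genes had 878 units per kb in Vehicle and 957 in iMSBmal1KO.

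The promoter signal of a gene was the sum over its regions within 1000 bp of an annotated start. Of the 75 genes 69 had such a region, and 64 passed the filter on low signal. No member promoter passed an adjusted p of 0.05 in limma, where 0.079% of all 17728 tested promoters did. At an unadjusted p under 0.05, 9 of 64 (14.1%) were higher in iMSBmal1KO, against 8.66% of all promoters, and 0 were lower, against 1.44%. With scaling by a trimmed mean (TMM) the member split was 7 higher and 2 lower (1003 and 906 of all promoters), with loess scaling 5 and 2 (898 and 1003), and scaled to total signal 3 and 1 (603 and 601). Groups did not overlap at 3 promoters that were higher (Dnajc19, Hsf2 and Dnajb4) and at 0 that were lower, against 3.49% and 0.998% of all promoters. The sums of Hsf2 and Dnajb4 leave out regions over RefSeq windows of these genes that the table lists under neighbours, where the groups overlapped. The median log2 change was 0.17 over the 64 member promoters and 0.15 over all tested promoters, and 54 of the 64 (84.4%) were above 0, against 72.8% of all. For 60 of the 64, the 95% interval lay inside a change of 1 on the log2 scale in either direction.

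The shift of all promoters changed in size with single libraries. Vehicle replicate 4 was the lowest of the 8 at 42 of 64 member promoters (65.6%) and at 50.6% of all tested promoters. Without it the median change was 0.08 at member promoters and 0.07 at all promoters. At the other end, iMSBmal1KO replicate 2 was the highest at 31 of 64 member promoters (48.4%) and at 33.5% of all, and without it the medians were 0.12 and 0.11. With TMM factors the medians were 0.02 and 0.004, and the members exceeded 0 at 36 of 64. Log2 changes below are therefore to be read against 0.15, the median of all promoters. The part of depth or of the mitochondrial share in these values was not tested.

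Among HSP70 genes 11 promoters were tested, with a median log2 change of 0.09, which is 0.06 below the median of all promoters; over all settings run this distance ranged from -0.10 to 0.01, above 0 only without Vehicle replicate 1. Per kb, Hspa8, the constitutive cytosolic HSP70, and Hspa2 had the highest promoter signal of the family, 1281 and 1385 in Vehicle. At Hspa8 the Vehicle libraries, in the order of their replicate numbers, had a promoter signal of 2428, 2302, 1868 and 1951, and the iMSBmal1KO libraries 2045, 2255, 1601 and 1816. The groups overlapped, with a log2 change of -0.15 (SE 0.17, 95% interval -0.49 to 0.19). Over the settings run the Hspa8 estimate stayed below 0 (-0.30 to -0.07). Its lowest unadjusted p in limma was 0.0064, and its lowest adjusted p was 0.343. Hspa5 had 1263, 979, 1049 and 938 in Vehicle and 1089, 1145, 718 and 945 in iMSBmal1KO. Its groups also overlapped (log2 change -0.13, 95% interval -0.50 to 0.23).

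The inducible genes Hspa1a and Hspa1b were open in muscle of both groups. Hspa1a had 741 ± 164 (SD, n = 4) units in Vehicle and 793 ± 28.5 (SD, n = 4) in iMSBmal1KO, and Hspa1b had 530 ± 74.1 and 553 ± 45.2. Per kb, Hspa1a stood at the 93.3 percentile of all tested promoters in Vehicle. Its promoter region also overlaps the RefSeq window of Hspa1l. Hspa9, the mitochondrial HSP70, had 1165 ± 242 and 1347 ± 132 (log2 change 0.23), and Hspa4, an HSP110-like exchange factor, had 824 ± 180 and 909 ± 145 (0.15). Hspa2, known for its role in sperm development, was among the 3 highest members per kb, and its log2 change was 0.09, with overlapping groups.

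Hspa13, a microsomal HSP70-like ATPase, had the lowest p of the member promoters. Its signal was 360, 534, 238 and 231 in Vehicle and 491, 503, 493 and 523 in iMSBmal1KO. All 4 knockout libraries lay within a narrow band, above 3 of the Vehicle libraries and below Vehicle replicate 2. The log2 change was 0.64 (SE 0.21, 95% interval 0.21 to 1.08), with an unadjusted p of 0.0051 and an adjusted p of 0.417 in limma. Without Vehicle replicate 2 the log2 change was 0.89 and the adjusted p was 0.00929, which made it the single member promoter past the threshold (1.56% of 64). In that setting 1.49% of all promoters were called. The change came from the region over the start, chr16:75766732-75767228, with 332 ± 142 units in Vehicle and 497 ± 14.9 in iMSBmal1KO.

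**Figure D2:**
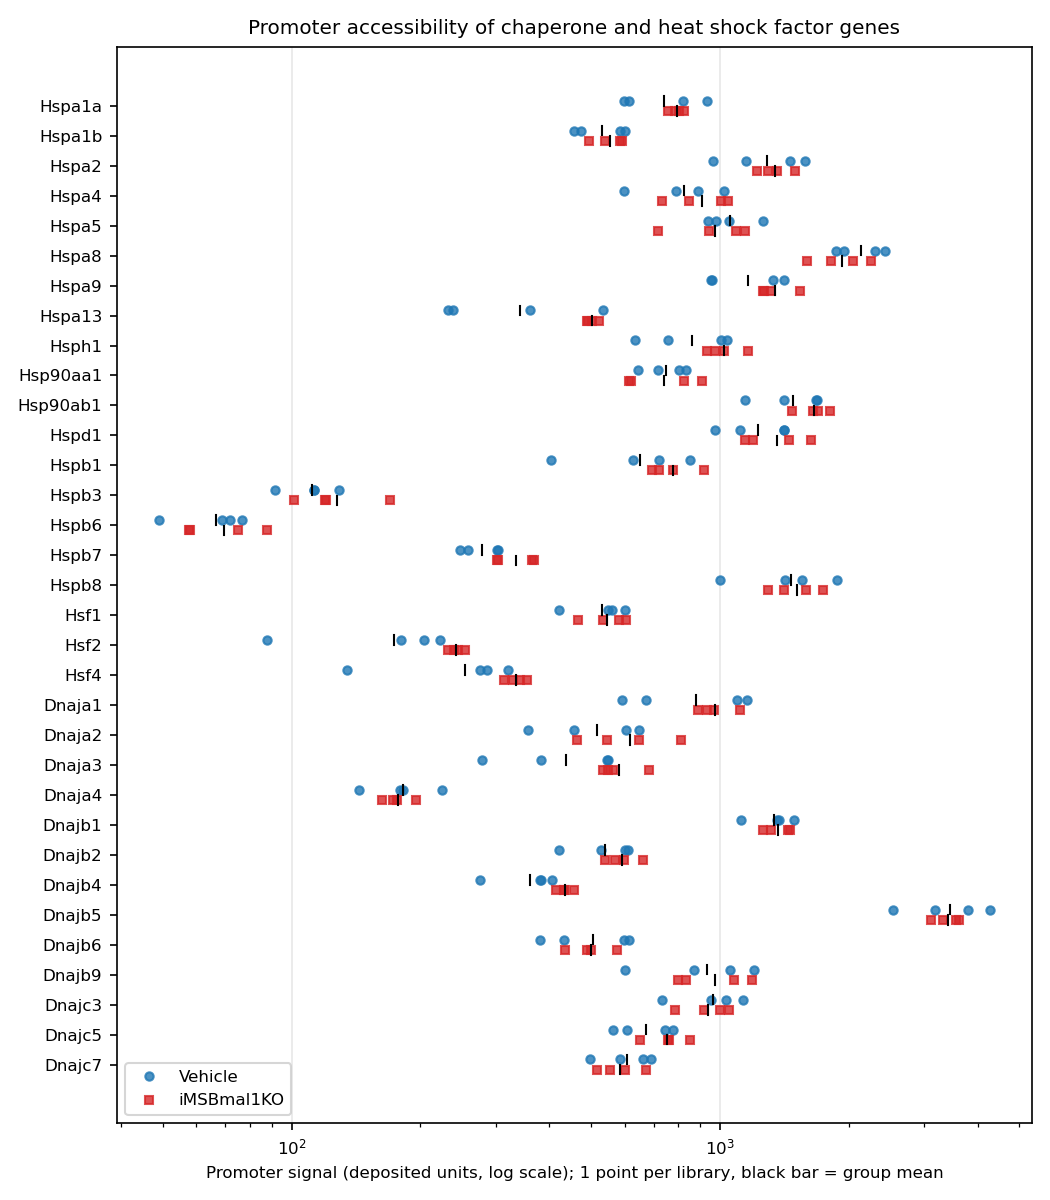
Promoter signal in deposited units on a log axis for the chaperone and heat shock factor genes with a tested promoter from a list by role, with circles for the 4 Vehicle libraries, squares for the 4 iMSBmal1KO libraries and black bars for group means. Promoters differ in covered length, so levels are to be compared within a gene. Hspa13 in iMSBmal1KO sits between 491 and 523.

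Hsph1, which encodes the nucleotide exchange factor HSP110, had 1040, 1005, 635 and 757 units in Vehicle and 1021, 1161, 974.5 and 933 in iMSBmal1KO. The groups overlapped (log2 change 0.28, SE 0.18). Of the cytosolic HSP90 genes, stress-inducible Hsp90aa1 had 749 ± 85.5 and 741 ± 148 units (log2 change -0.03, 95% interval -0.40 to 0.34), and constitutive Hsp90ab1 had 1480 ± 254 and 1657 ± 139 (0.18, 95% interval -0.17 to 0.52), neither with an unadjusted p under 0.05. Hsp90b1 had no promoter region under its own name. Hspd1, which encodes HSP60, had 1228 ± 220 units in Vehicle and 1356 ± 229 in iMSBmal1KO (log2 change 0.15). The Hspd1 promoter signal includes the DNA over the start of Hspe1, since the table names 1 gene per region.

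Genes with the Hspb prefix had 8 tested promoters, including those of Hspbap1 and Hspbp1, which do not encode small heat shock proteins. The median log2 change was 0.18, or 0.03 above all promoters (-0.04 to 0.10 over all settings run). Hspbap1 (0.19) and Hspbp1 (0.33) lay above that median, so without them it is lower. Of the small heat shock protein genes, Hspb1, Hspb3 and Hspb7 lay above 0.15, the median of all promoters. Hspb6 (0.06), Hspb8 (0.07) and Hspb9 (-0.07) lay below it. Hspb8, a partner of BAG3 in chaperone-assisted autophagy, had the highest signal per kb of the 8, 1232 in Vehicle. In all it had 1876, 1559, 1421 and 1000.5 in Vehicle and 1292, 1592, 1414 and 1742 in iMSBmal1KO. The knockout libraries all lay inside the Vehicle range. Hspb1, which encodes HSP27, had 652 ± 189 and 777 ± 101 units (log2 change 0.30, 95% interval -0.11 to 0.70). Hspb7, a filamin-binding protein of striated muscle, had 278 ± 29.0 and 335 ± 37.1 (0.27). Hspb3, found mainly in muscle, had 112 ± 15.4 and 128 ± 29.1 (0.18). None of the 8 had an unadjusted p under 0.05.

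Among the heat shock factors, 4 promoters were tested, including that of Hsf2bp. Hsf1, the main factor of the heat shock response, had 559, 547, 599 and 422 units in Vehicle and 581, 605, 465 and 533 in iMSBmal1KO. The groups overlapped, with a log2 change of 0.04 (95% interval -0.32 to 0.41). Hsf2, a developmental factor that can pair with HSF1, had 222, 180, 203 and 87.6 in Vehicle and 244, 254, 240 and 232 in iMSBmal1KO. Every knockout library was above every Vehicle library, and Vehicle replicate 4 was far below the other 3. The log2 change was 0.57 (SE 0.23, unadjusted p = 0.0176, adjusted p = 0.469 in limma). The RefSeq window of Hsf2, with the E-box printed above, lies in a region that the table names 4930467K11Rik. That region is not part of the Hsf2 sum, and its groups overlapped (469 ± 86.4 and 552 ± 83.2, log2 change 0.24). Hsf4, a factor best known from the lens, had 254 ± 81.8 and 334 ± 18.3 units (log2 change 0.47, adjusted p = 0.492).

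J-domain genes of the Dnaja class had 4 tested promoters. Dnaja3, a mitochondrial J-domain protein, had 545, 548, 383 and 278 units in Vehicle and 547, 682, 533 and 563 in iMSBmal1KO. The groups overlapped at Vehicle replicates 1 and 2 (log2 change 0.45, SE 0.20, adjusted p = 0.476 in limma). Dnaja1 and Dnaja2, cytosolic partners of HSP70, had log2 changes of 0.21 and 0.27. Dnaja4 had 183 ± 33.3 and 177 ± 13.3 units (-0.03).

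Of the Dnajb class 9 promoters were tested, with a median log2 change of 0.14. Dnajb14 had the largest estimate of the member promoters, with 68.0 ± 31.0 units in Vehicle and 116 ± 28.9 in iMSBmal1KO. Its groups overlapped (log2 change 0.91, 95% interval -0.02 to 1.84, adjusted p = 0.496 in limma), and it held 7 to 348 reads per library. By summed signal its log2 change was 0.74 (unadjusted p = 0.0119, adjusted p = 0.501 in limma). Dnajb5 had the highest promoter signal per kb of all members, 1600 in Vehicle, with 4281, 3178, 3786 and 2539 units in Vehicle and 3118, 3562, 3322 and 3622 in iMSBmal1KO. The knockout libraries lay inside the Vehicle range (log2 change 0.01, 95% interval -0.33 to 0.35). Dnajb1, the HSP40 that starts the cycle of inducible HSP70, had 1336 ± 154 and 1370 ± 98.8 units (0.04). Dnajb6, mutated in a limb-girdle muscular dystrophy, had 505 ± 117 and 500 ± 57.5 (0.01). Dnajb4 had 405, 380, 383 and 275 units in Vehicle and 456, 433, 414 and 433 in iMSBmal1KO, so its groups did not overlap, with an unadjusted p of 0.128 in limma. Another RefSeq window of Dnajb4 was overlapped by regions named Fubp1, outside this sum. In the region over most of that window the groups overlapped (725 ± 139 and 876 ± 133 units, log2 change 0.28). A smaller region at its edge, also with overlapping groups, had 30.5 ± 6.59 and 25.3 ± 6.14 units (-0.27). Dnajb12, a J-domain protein of the ER membrane, had 662 ± 248 and 870 ± 115 (log2 change 0.47, adjusted p = 0.492).

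In the Dnajc class 24 promoters were tested, with a median log2 change of 0.21, or 0.06 above all promoters (0.04 to 0.11 over all settings run). Dnajc19, part of the motor that imports proteins into mitochondria, had 357, 359, 229 and 206 units in Vehicle and 424, 453, 372 and 403 in iMSBmal1KO. The groups did not overlap (log2 change 0.56, SE 0.20, unadjusted p = 0.0078, adjusted p = 0.448 in limma). Dnajc15, a related protein of the inner mitochondrial membrane, had 116 ± 35.8 and 159 ± 32.6 units (0.49, adjusted p = 0.492). Dnajc10, a disulfide reductase of the endoplasmic reticulum, had 133 ± 34.2 and 188 ± 39.2 (0.51, adjusted p = 0.469). Dnajc2, a ribosome-associated J-domain protein, had 207 ± 74.9 and 283 ± 32.5 (0.53, adjusted p = 0.475). Groups overlapped at these last 3.

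Estimates below 0 were found at 4 Dnajc promoters (Dnajc3, Dnajc6, Dnajc7 and Dnajc22). Dnajc3 had 964 ± 171 and 940 ± 117 units (log2 change -0.03), and Dnajc7, which links HSP70 and HSP90, had 608 ± 86.6 and 585 ± 68.1 (-0.05). Dnajc22 had the largest negative estimate, -0.37, at 10.9 ± 2.36 and 9.35 ± 4.97 units, where 1 library held 2 reads (95% interval -1.32 to 0.58). Dnajc5, the cysteine string protein of synaptic vesicles, had 673 ± 104 and 754 ± 81.1 (0.17).

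**Figure D3:**
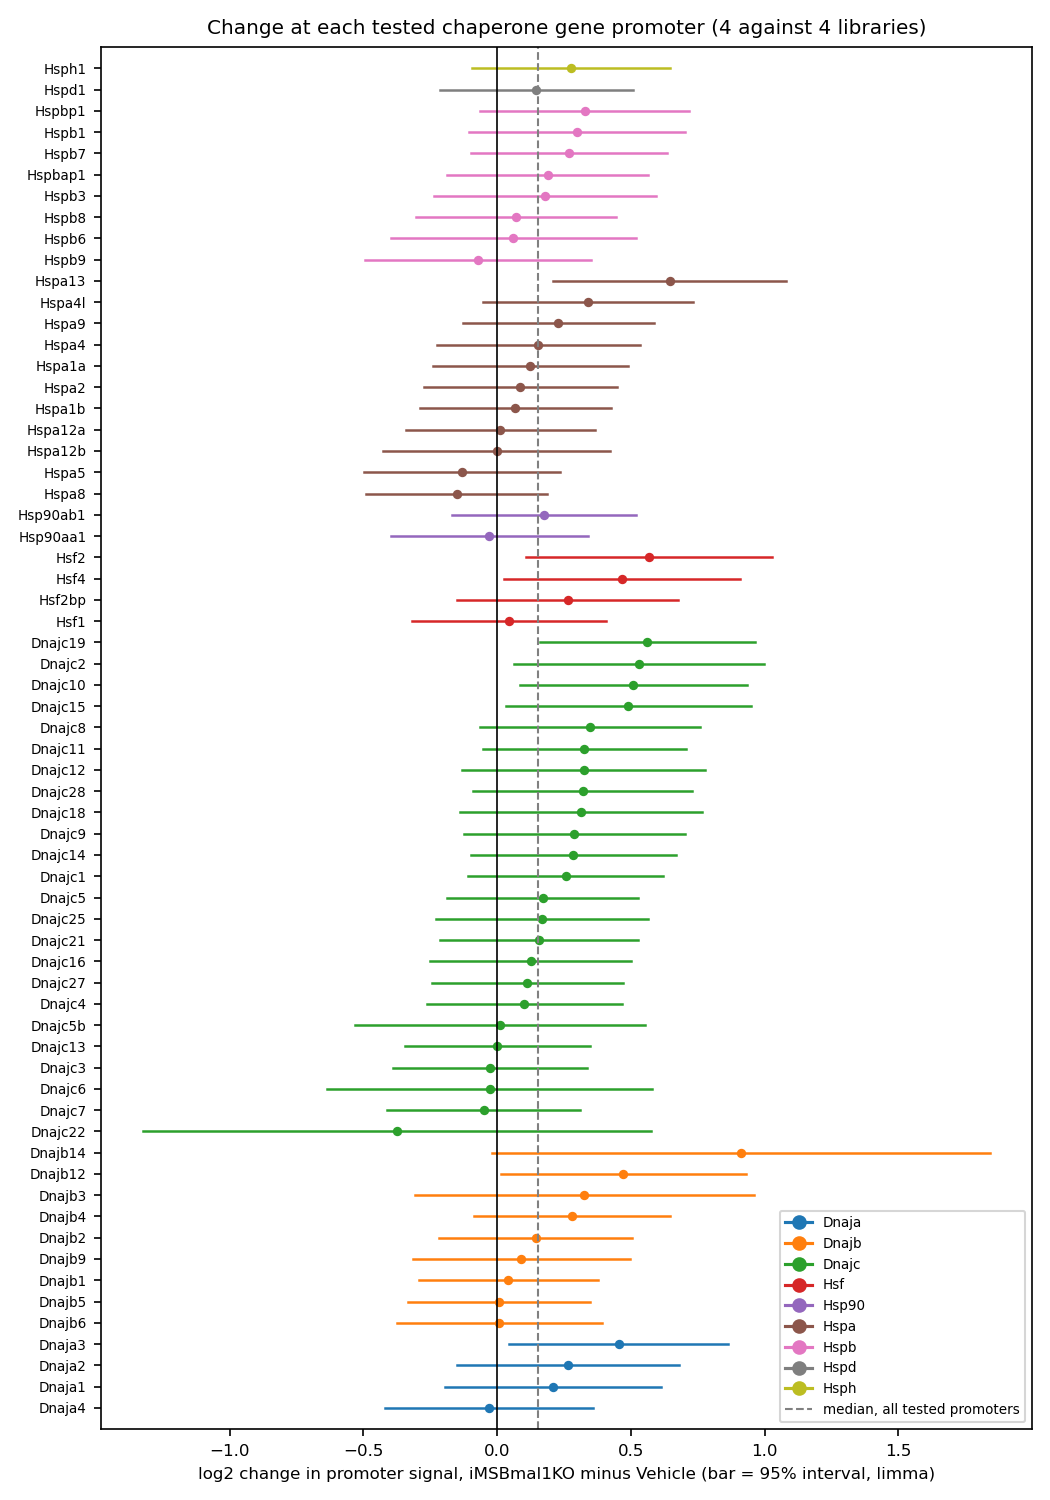
The log2 change in promoter signal, iMSBmal1KO minus Vehicle, for each of the 64 tested member promoters, with points for the estimate and bars for its 95% interval, coloured by subfamily. The solid line is 0 and the dashed line is the median of all tested promoters (0.15). The intervals of 9 promoters lie above 0 and none lies below it.

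Summed promoter signal per subfamily overlapped between groups in each of the 9 subfamilies. The 12 Hspa promoters summed to 9468 ± 1610 (SD, n = 4) in Vehicle and 9831 ± 987 (SD, n = 4) in iMSBmal1KO. The 26 Dnajc promoters summed to 8705 ± 1392 and 9718 ± 1079, and the 11 Dnajb promoters to 7882 ± 1401 and 8297 ± 551. Dnaja summed to 2014 ± 521 and 2351 ± 315, and Hspb to 3604 ± 745 and 4027 ± 333. The Hsf sum was 1271, 1320, 1261 and 785 in Vehicle and 1389, 1487, 1245 and 1310 in iMSBmal1KO. Vehicle replicate 4 had the lowest sum of its group in 8 of 9 subfamilies, the exception being Hsph1.

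For each motif the regions that overlap its sites were taken, whatever gene the table names there. Sites of the E-box in 8 of the 9 genes fell in 8 tested regions. All 8 had an estimate above 0, as did 72.7% of the 165 tested member regions within 1000 bp of a start and 62.0% of all tested regions. None of the 8 had an unadjusted p under 0.05 in limma. The log2 changes ran from 0.09 at Dnajb9 to 0.71 at Dnajc8, with a median of 0.18. The Dnajc8 region covers only part of its site, and the Dnajc8 promoter signal as a whole had a log2 change of 0.35. The Hsf2 site lies in the region named 4930467K11Rik (0.24). For the 2-block heat shock element, 12 of the 17 genes had such a region, 11 regions in all. All 11 were also above 0, with a median of 0.15. Those with a 3-block element were Dnajb6 (0.01), the shared region of Hspd1 and Hspe1 (0.15) and Hsph1 (0.29). The ER stress elements lay in regions with -0.13 at Hspa5, -0.03 at Dnajc3 and -0.03 at Hsp90b1, where the table names Ttc41. These values stand beside a median of 0.18 for member regions within 1000 bp of a start and 0.12 for all regions. No difference between motif classes, or from those medians, was tested.

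The table names 1 gene per region, so some starts of these genes were listed under a neighbour. Apart from windows listed under another member (Hspe1 under Hspd1 and Hspa1l under Hspa1a), there were 9 such regions over RefSeq promoters of 8 genes. All 9 were tested, and none had an unadjusted p under 0.05 in limma (the smallest was 0.15). The start of Hsp90b1 lay under Ttc41, with 1444 ± 308 units in Vehicle and 1396 ± 173 in iMSBmal1KO (log2 change -0.03). The start of Hspa14, a ribosome-associated HSP70, lay under Cdnf, with 718 ± 166 and 796 ± 129 (0.17). Under its own symbol Dnajb11, a J-domain partner of BiP, had only 2.24 ± 1.17 units, but the region over its start, named Tbccd1, had 636 ± 183 and 637 ± 78.0. Likewise Hspb6, the small heat shock protein HSP20, had 66.6 ± 12.2 under its own symbol and 1757 ± 380 under Proser3 (log2 change there 0.02). Low signal under a symbol is thus not a closed promoter in these genes.

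Single regions gave no call either. Of the 928 member regions 319 in 67 genes passed the filter on low signal, and 0 passed an adjusted p of 0.05, where 0.0881% of all 124901 tested regions did. At an unadjusted p under 0.05, 17 (5.33%) were higher, against 6.59% of all regions, and 6 (1.88%) were lower, against 2.63%. Groups did not overlap at 9 regions that were higher (2.82%) and 6 that were lower (1.88%), against 3.62% and 1.87% of all regions. The median log2 change was 0.19 over member regions and 0.12 over all regions. Summed over all regions of a gene, 70 of 75 genes were tested and 0 were called, where 0.13% of 22241 genes were. At an unadjusted p under 0.05, 8 genes (11.4%) were higher, against 7.62% of all genes, and 0 were lower, against 1.86%.

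**Figure D4:**
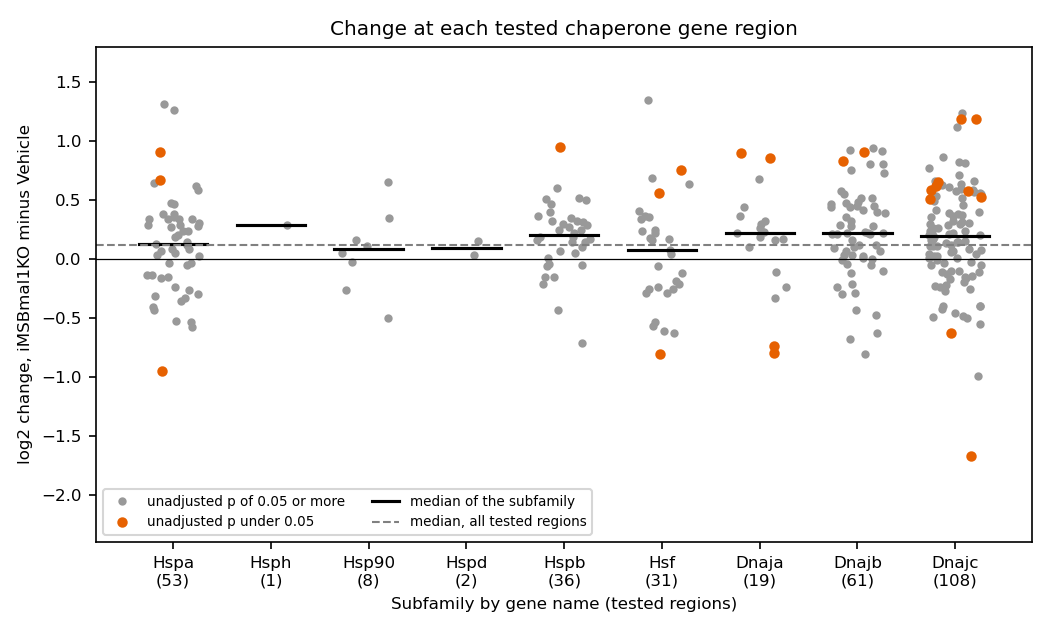
The log2 change of each of the 319 tested member regions by subfamily, with the number of tested regions under each name. Orange points have an unadjusted p under 0.05 (17 above 0 and 6 below), black bars are subfamily medians, and the dashed line is the median of all tested regions (0.12).

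Among regions with higher values, that with the lowest p lay at chr2:18219297-18219504 in Dnajc1, a J-domain protein of the ER membrane. The table places it 54 bp into a short annotated transcript, far downstream of the RefSeq promoter window of the gene (chr2:18392781-18393080). It had 61.8, 55.5, 65.5 and 53.2 units in Vehicle and 104, 88.6, 90.7 and 89.1 in iMSBmal1KO. The groups did not overlap (log2 change 0.65, SE 0.22, adjusted p = 0.434 in limma). Summed over Dnajc1 regions near any annotated start, the groups overlapped, with 564 ± 101 and 667 ± 68.7 units (0.26). A short region in the 5′ UTR of Dnajc16, chr4:141790559-141790620, rested on 1 to 36 reads per library and had 6.49 ± 2.79 and 15.2 ± 2.19 units (log2 change 1.19, adjusted p = 0.475).

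Among regions with lower values, one at Dnajc7 lay 765 bp before an annotated start, at chr11:100595656-100595907. With Dnajc7 on the minus strand, this region was far downstream of the RefSeq promoter windows of the gene (chr11:100613303-100613602 and chr11:100619578-100619877). It had 213, 174, 160 and 131 units in Vehicle and 89.0, 115, 112 and 118 in iMSBmal1KO. The groups did not overlap (log2 change -0.63, SE 0.22, 95% interval -1.08 to -0.17, adjusted p = 0.445 in limma). With loess scaling the adjusted p was 0.0491, which made it the single member region past the threshold in any setting run (0.313% of 319, against 0.274% of all regions in that setting). The Dnajc7 promoter signal, which sums 14 regions near any annotated start, did not share this difference in size (-0.05).

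Dnaja4, a J-domain partner of HSP70, had a pair of nearby regions in intron 2 with opposite estimates. At chr9:54700183-54700353 the signal was 34.1, 27.7, 23.5 and 50.03 in Vehicle and 17.1, 14.2, 21.5 and 21.3 in iMSBmal1KO. The groups did not overlap (log2 change -0.80, SE 0.31, adjusted p = 0.494 in limma). At chr9:54700973-54701109 it was 30.9, 21.6, 21.0 and 12.5 in Vehicle and 28.3, 38.5, 50.1 and 42.6 in iMSBmal1KO. Here the groups overlapped (log2 change 0.90, SE 0.31, adjusted p = 0.445). These regions held 4 to 66 reads per library, and neither estimate passed the threshold.

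The largest negative estimate was in intron 36 of Dnajc13, a J-domain protein of endosomes, at chr9:104183358-104183519. It had 27.7, 24.7, 24.8 and 9.38 units in Vehicle and 18.0, 6.69, 1.19 and 5.02 in iMSBmal1KO. The groups overlapped at Vehicle replicate 4 (log2 change -1.67, SE 0.55, adjusted p = 0.431 in limma), and the region held 1 to 42 reads per library. Upstream of Hspa12b, an endothelial HSP70-like gene, a region had 19.3 ± 7.13 and 10.2 ± 4.86 units (-0.95, adjusted p = 0.524). A region in the 3′ UTR of Dnajc18 had 10.5 ± 7.88 and 21.5 ± 5.72 (1.19, adjusted p = 0.472).

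**Figure D5:**
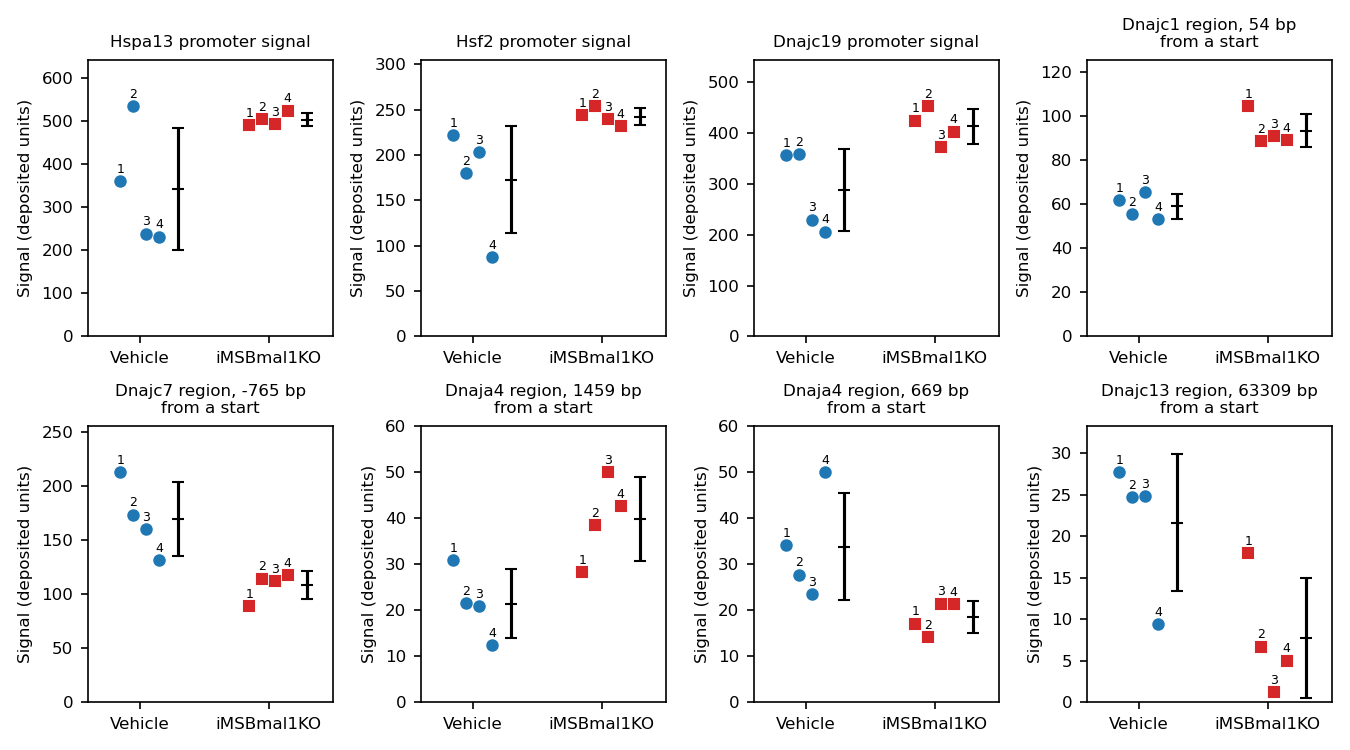
Signal in deposited units per library for 3 member promoters and 5 single regions, with the replicate number beside each point and black bars for the mean and SD of 4 libraries. The Dnajc1 and Dnajc7 regions have no overlap between groups, and the 2 regions of Dnaja4 intron 2 lie on opposite sides.

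Other genes of protein folding, from a list of 46 co-chaperones, chaperonin subunits and prefoldins, had 38 tested promoters. None was called. At an unadjusted p under 0.05, 4 of 38 (10.5%) were higher (Cct2, Pfdn4, Pfdn5 and Pfdn6), against 8.66% of all promoters, and 0 were lower, against 1.44%. The median log2 change was 0.20, against 0.15 for all. Cct2, a subunit of the cytosolic chaperonin, had 345 units in Vehicle and 505 in iMSBmal1KO (log2 change 0.61, adjusted p = 0.448). Cryab, which encodes the small heat shock protein alphaB-crystallin outside the naming rule, had 1388 ± 205 and 1301 ± 259 units (-0.11). Bag3, the partner of HSPB8, had 1409 ± 197 and 1448 ± 173 (0.04).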

How the data were processed

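The authors deposited 1 table of ATAC-seq signal per region and library. Per the submitters' processing notes, Partek, Bowtie2, MACS2 and DESeq2 were used and builds mm10 and GRCm39 are named, with no roles; duplicate removal and the shift of reads for the transposase are not given in the sources used here. In each library 98.3% to 99.8% of non-zero values were whole multiples of 1 step (0.428 to 3.13) within 0.02 reads, so the deposited signal was read as scaled reads. Coordinates are printed as listed, counted from 1; all 75 member genes overlapped their RefSeq gene of GRCm38.p6. Of the members' regions 48.6% abutted another region.

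Groups came from the labels, with 4 libraries each. Features with at least 0.762 read equivalents per M reads in 4 libraries and 15 reads in all were tested with limma 3.58.1 (R 4.3.3; trend, robust) on log2(signal + 1), so changes of low regions are understated, and p-values were adjusted by Benjamini-Hochberg over all regions, genes or promoters. The calls are at an adjusted p of 0.05. The script was tested on simulated data. Intervals of counting error were not used; the number of reads limits low regions. Named items were the 5 lowest p in each direction per level, genes of a list by role and the 3 highest and lowest promoters per kb. Members and lists were chosen with earlier results of these data known. Alternatives covered scaling, filter, pseudocount, window, threshold, model, a replicate block and leaving out each library. Same-numbered replicates did not pair (r of deviations -0.064 to 0.14).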

Additional observations from a re-analysis of the deposited data

Results flagged for a closer look

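In groups of 4 libraries, 3 of 104 group values of the named items held a library far from the other 3, where chance gives about 1 in 20, or 5.2. The Dnajc1 region at chr2:18219297-18219504 had 104 units in iMSBmal1KO replicate 1, against 88.6 to 90.7 in the other 3. The Dnajc13 intron region had 9.38 units in Vehicle replicate 4, against 24.7 to 27.7. The Dnajc22 promoter had 14.4 units in Vehicle replicate 2, against 9.38 to 10.2.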

How the results depend on the processing

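No member region, gene or promoter passed the threshold, and the alternatives run gave 0 calls except as follows. With loess scaling 1 region was called (Dnajc7), where 342 of all 124901 were. Without Vehicle replicate 2, 1 gene by summed signal (adjusted p = 0.0156) and 1 by promoter signal (adjusted p = 0.00929) were called, Hspa13 in both, where 107 of 22241 genes and 265 of 17728 promoters were called, so the counts ranged from 0 to 1 over the left-out libraries. At an unadjusted p of 0.05 the counts were 23 regions, 8 genes by summed signal and 9 promoters. With limma-voom 35 regions (11.0%) had an unadjusted p under 0.05, against 11.4% of all, and 0 were called. The split of such regions was 17 higher and 6 lower as deposited (8236 and 3280 of all regions), 16 and 9 with TMM factors (6263 and 5850), 18 and 10 with loess scaling (6116 and 6524), and 6 and 9 when scaled to total signal (4553 and 6019). With the replicate block 0 regions, 0 genes and 0 promoters were called; the numbers did not pair the samples, and not every library correlated best with its own number. The median log2 change of member regions ranged from 0.09 to 0.23 over left-out libraries and that of promoters from 0.08 to 0.26; their scaling to total signal gave 0.06 and 0.04. Adding the 9 regions over member promoters that carry a neighbour's name, an alternative chosen after seeing the data, gave 0 calls. Of 49 named estimates 21 changed sign in some setting. In 2 of these, the Dnajc7 and Hspa5 promoters, an unadjusted p under 0.05 was reached in some setting (lowest 0.0251 and 0.030). The count test listed as an alternative was not run, since whole reads could not be recovered for all values. Depth limits the lowest regions, some with 1 read in a library.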
